A study of Mus musculus with 11 samples.

Results

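The genes described here are 8 cytokine-STAT feedback genes of the mouse, Socs1, Socs2, Socs3, Cish, Pim1, Pim2, Bcl6 and Osmr, taken by symbol from a table of raw read counts that holds 55291 gene symbols. All 8 were in the table and all 8 passed the filter on low counts that left 17183 genes for testing. The libraries came from bone marrow cells sorted by flow cytometry as Lin-cKit+Sca-1+ (LSK), the fraction with haematopoietic stem cells and multipotent progenitors. The labels give strain C57BL/6 and say that RNA was taken mouse by mouse. Of the 11 libraries, 4 have the genotype Phf6R274X Tg (Tg), 3 Phf6 knock out (KO) and 4 wild type (WT). Phf6 encodes a chromatin protein with plant homeodomain fingers, and R274X is a premature stop codon in its reading frame. The labels give no age, sex or date, and do not say which promoter or Cre drives either allele or whether the Tg mice keep their own Phf6.

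Cytokine receptors of the haematopoietic system signal through JAK kinases, which phosphorylate STAT transcription factors. STATs switch on genes that act back on the same pathway. The SOCS proteins and CIS (from Cish) bind phosphorylated receptors or JAKs and recruit a ubiquitin ligase through their SOCS box, while the PIM kinases carry a survival and growth signal forward. BCL6 is a repressor whose binding sites resemble those of STATs, and OSMR is the receptor chain that pairs with gp130 to bind oncostatin M. In stem and progenitor cells such feedback limits the response to thrombopoietin, interferons, G-CSF and gp130 cytokines.

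The promoter windows of Socs3, Cish and Bcl6 are shown first, because these 3 members carry a STAT-type motif there, and of the 3 Socs3 alone passed the test in a comparison of genotypes. The windows run from 250 bases before to 50 bases after a RefSeq transcription start (GRCm38.p6, the assembly of mm10) and are printed 5′ to 3′ on the gene's strand. Capitals mark TTCNNNGAA, the palindrome with a spacer of 3 bases that STAT dimers bind, which reads the same on both strands. Of the 32851 promoter windows in the reference table, 8.30% hold it, and of the 27025 genes with a window 9.55% hold it in any window.
Socs3, chr11:117969317-117969616, minus strand: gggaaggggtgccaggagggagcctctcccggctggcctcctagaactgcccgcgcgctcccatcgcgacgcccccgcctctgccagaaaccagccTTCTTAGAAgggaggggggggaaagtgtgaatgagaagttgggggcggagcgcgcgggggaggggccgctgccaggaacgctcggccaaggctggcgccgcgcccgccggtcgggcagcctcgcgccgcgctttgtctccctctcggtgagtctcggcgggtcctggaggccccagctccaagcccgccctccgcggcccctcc
Cish, chr9:107296409-107296708, plus strand: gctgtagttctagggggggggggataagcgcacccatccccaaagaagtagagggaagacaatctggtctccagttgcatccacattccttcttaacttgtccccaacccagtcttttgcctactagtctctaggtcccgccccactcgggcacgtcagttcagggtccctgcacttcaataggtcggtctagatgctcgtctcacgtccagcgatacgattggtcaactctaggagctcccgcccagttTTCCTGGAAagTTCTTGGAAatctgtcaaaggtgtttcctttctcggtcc
Bcl6, chr16:23981234-23981533, minus strand: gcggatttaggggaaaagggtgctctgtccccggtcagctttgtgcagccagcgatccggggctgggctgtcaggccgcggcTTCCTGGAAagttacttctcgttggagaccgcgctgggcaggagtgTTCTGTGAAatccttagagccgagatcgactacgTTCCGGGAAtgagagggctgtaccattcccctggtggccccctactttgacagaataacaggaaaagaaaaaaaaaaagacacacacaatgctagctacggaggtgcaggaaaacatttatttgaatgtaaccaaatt

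Socs3 held 1 match in its window, starting at base 97 counted from 1 at the window's 5′ end. Cish held 2 in tandem, starting at bases 251 and 262, and the Bcl6 window shown held 3. The Bcl6 window shown, the one with more matches, lies at a start within the gene. A second Bcl6 window, chr16:23988803-23989102, spans the gene's annotated 5′ end and held 1. The windows of Socs3, Cish and Osmr also lie wholly within the gene as annotated. For these members the bases before the annotated 5′ end were not searched. The windows of Socs1, Pim1, Pim2 and Osmr held none, and for Socs2 the reference table gave no window. The form with a spacer of 4 bases, TTCNNNNGAA, which 6.95% of all windows hold, was in no window of the members. The stricter form TTCCNGGAA, a subset of TTCNNNGAA, was in 1.15% of all windows. Among the members it was in those of Cish (1 match) and Bcl6 (2 matches, both in the window shown). These are matches of letters, not measured binding.

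The libraries held 20990446 to 45632018 counts each. A count of 0 allows up to 3 counts, which is 0.0657 to 0.143 CPM (each count scaled to a common library size). LSK identity genes were present in every library: Kit at 579 to 884 CPM, Ly6a, which encodes Sca-1, at 20.0 to 40.6 and Cd34 at 550 to 930. Phf6 had 220 ± 46.1 CPM in Tg, 19.4 ± 4.33 in KO and 121 ± 14.2 in WT (SD, n = 4, 3 and 4). Xist, the X-inactivation transcript, was at 0.0307 to 0.297 CPM of the library total in the Tg libraries and at 32.7 to 53.8 in all KO and WT libraries. The Y-linked genes Ddx3y, Uty, Kdm5d and Eif2s3y together reached 10 CPM in the 4 Tg libraries and also in KO replicate 1 and WT replicates 1, 2 and 4, so these last 4 libraries held transcripts of both kinds. Why they do was not tested, and for these 4 libraries the files leave it unsettled whether each holds RNA of a single mouse. A low Xist level and the Tg genotype cannot be told apart in these libraries.

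Socs3, which encodes the inhibitor of gp130, G-CSF and leptin receptor signalling, was the 1 member that passed the test in any comparison (chromosome 11, 117966079 to 117970047, minus strand). In Tg it held 66.2, 76.2, 89.1 and 94.7 CPM, in KO 24.8, 14.1 and 14.8, and in WT 26.5, 22.3, 39.4 and 42.8. Every Tg library lay above every KO and every WT library, and KO replicate 1 lay above WT replicate 2. The means were 81.6 ± 12.8 CPM in Tg, 17.9 ± 5.99 in KO and 32.7 ± 9.88 in WT (SD, n = 4, 3 and 4). Socs3 rose 2.50-fold in Tg against WT (log2 fold change 1.32, SE 0.24, 95% interval 0.80 to 1.84, edgeR adjusted p = 0.0146). Against KO it rose 4.55-fold in Tg (log2 fold change 2.19, SE 0.27, 95% interval 1.59 to 2.78, adjusted p = 0.00177 by edgeR). In KO against WT its log2 fold change was -0.87 (SE 0.26, 95% interval -1.43 to -0.30) and did not pass over all genes (edgeR adjusted p = 0.535, unadjusted p = 0.00617; DESeq2 adjusted p = 0.0693).

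With 1 library left out at a time, the log2 fold change of Socs3 in Tg against WT stayed between 1.18 and 1.47 (edgeR adjusted p up to 0.0461, without WT replicate 1), and in Tg against KO between 2.04 and 2.50 (up to 0.0134, without KO replicate 2). Without the 4 libraries that held both Xist and Y-linked transcripts, 1 WT library was left, assumed to vary like the other groups. The log2 fold change was then 1.06 in Tg against WT (edgeR adjusted p = 0.224) and 2.49 in Tg against KO (adjusted p = 0.00123). With the Y-linked level as a covariate it was 1.30 in Tg against WT (adjusted p = 0.0270).

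**Figure D1:**
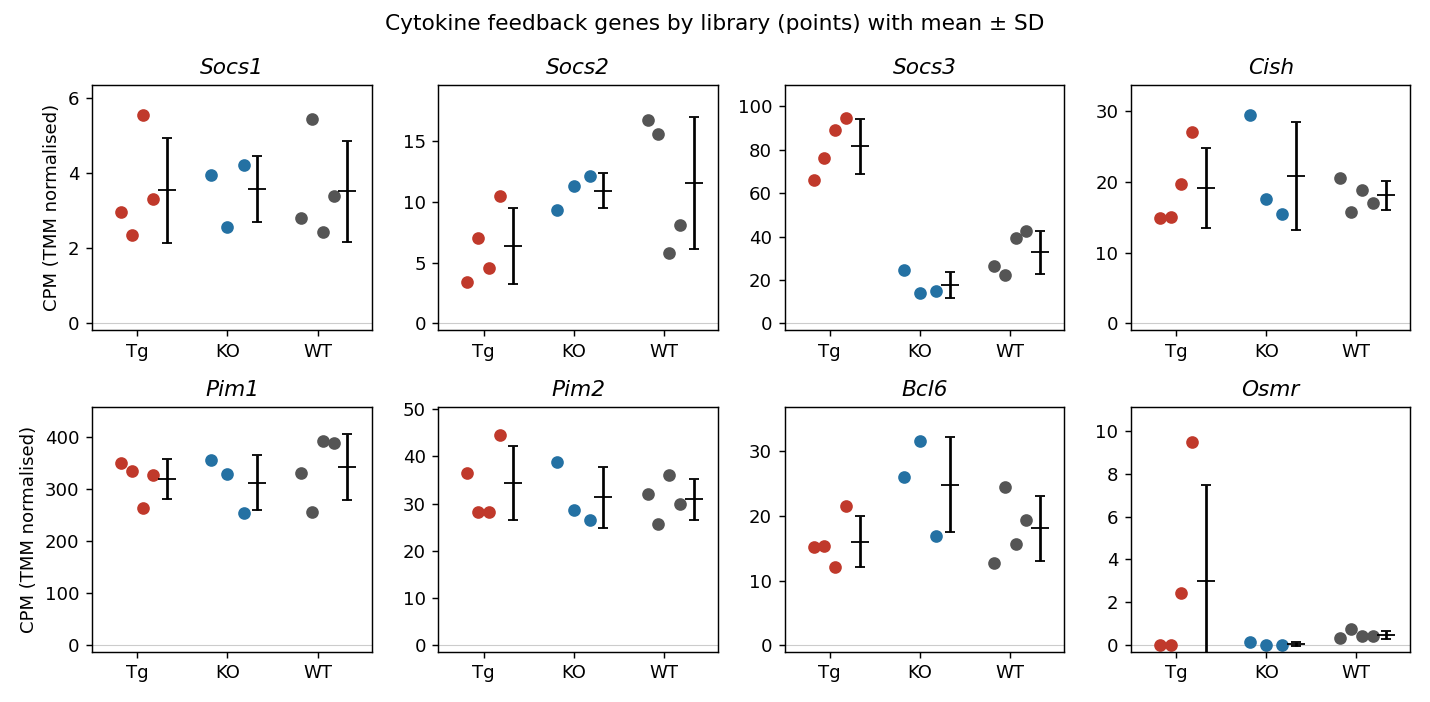
CPM of the 8 members (vertical axes, TMM normalised, each panel on its own scale) in every Tg (n = 4), KO (n = 3) and WT (n = 4) library, with the mean and SD beside the points; the bar of Osmr in Tg is cut at 0. Socs3 shows 4 Tg libraries between 66.2 and 94.7 CPM, above all others, while the groups overlap for the other members apart from Osmr in KO and WT.

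In GRCm38 the other members lie on chromosome 16 (Socs1, 10782240 to 10785536, and Bcl6, 23965052 to 23988852, both on the minus strand), 10 (Socs2, 95385362 to 95417180, minus), 9 (Cish, 107296026 to 107302784, plus), 17 (Pim1, 29490753 to 29496112, plus), X (Pim2, 7878262 to 7883432, plus) and 15 (Osmr, 6813577 to 6874969, minus). Among the other SOCS genes, Socs1 restrains JAK kinases after interferon and common gamma chain cytokines. It had 2.98, 2.35, 5.55 and 3.32 CPM in Tg, 3.96, 2.58 and 4.22 in KO and 2.80, 5.44, 2.44 and 3.40 in WT. The 3 groups covered nearly the same range. Its log2 fold changes were 0.01 in Tg against WT (95% interval -0.70 to 0.72), 0.03 in KO against WT (-0.74 to 0.79) and -0.02 in Tg against KO (-0.78 to 0.74). None of these passed, and at this level the intervals leave room for changes of up to about 0.79 either way on the log2 scale.

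Socs2, the inhibitor of growth hormone receptor signalling and a STAT5 target, had 3.38, 7.01, 4.56 and 10.5 CPM in Tg, 9.36, 11.3 and 12.1 in KO and 16.7, 15.6, 5.81 and 8.10 in WT. WT split into a pair of libraries above and a pair below the KO range, and the Tg and WT libraries overlapped. The log2 fold change in Tg against WT was -0.86 (SE 0.39, 95% interval -1.71 to -0.02, unadjusted p = 0.0464, adjusted p = 0.218 by edgeR), which did not pass. It was -0.78 in Tg against KO (-1.68 to 0.12) and -0.08 in KO against WT (-0.99 to 0.82). With the 4 libraries of both transcript kinds left out, its value in Tg against WT was 0.14.

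Cish, whose product CIS is a SOCS family inhibitor and whose transcript is a standard readout of STAT5 activity, had 14.8, 15.1, 19.7 and 26.9 CPM in Tg, 29.5, 17.5 and 15.4 in KO and 20.6, 15.8, 18.8 and 17.0 in WT. The groups overlapped, with KO replicate 1 highest. The log2 fold changes were 0.08 in Tg against WT (95% interval -0.43 to 0.59), 0.21 in KO against WT (-0.34 to 0.75) and -0.12 in Tg against KO (-0.67 to 0.42). None passed for Cish, whose window above has the motif in tandem.

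Pim1, a serine/threonine kinase that promotes survival and cooperates with MYC, had the highest level per kilobase of exon of the 8 members. It held 350, 334, 263 and 327 CPM in Tg, 355, 328 and 254 in KO and 331, 256, 391 and 388 in WT. All 3 groups spanned similar ranges. Its log2 fold changes had the narrowest intervals of the 8 members, -0.10 in Tg against WT (95% interval -0.43 to 0.23), -0.13 in KO against WT (-0.48 to 0.23) and 0.03 in Tg against KO (-0.33 to 0.38). None of the 3 passed.

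Pim2, a second kinase of the family encoded on the X chromosome, had 36.5, 28.2, 28.3 and 44.5 CPM in Tg, 38.7, 28.7 and 26.4 in KO and 32.1, 25.6, 36.1 and 29.9 in WT. These ranges overlapped too. The log2 fold changes were 0.15 in Tg against WT (95% interval -0.23 to 0.53), 0.02 in KO against WT (-0.39 to 0.43) and 0.13 in Tg against KO (-0.28 to 0.55), and none passed.

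Bcl6, the transcriptional repressor of germinal centre B cells that also acts in progenitors, had 15.1, 15.3, 12.1 and 21.5 CPM in Tg, 26.0, 31.5 and 16.9 in KO and 12.7, 24.6, 15.7 and 19.3 in WT. KO held the highest libraries, but KO replicate 3 lay within the range of both other groups. The log2 fold change in Tg against KO was -0.63 (SE 0.26, 95% interval -1.21 to -0.06, unadjusted p = 0.0340, adjusted p = 0.188 by edgeR) and did not pass. It was 0.46 in KO against WT (-0.12 to 1.03) and -0.17 in Tg against WT (-0.71 to 0.37). B cell markers, a lineage that also expresses Bcl6, summed to 187 to 280 CPM in Tg, 1271 to 6054 in KO and 292 to 4642 in WT over 7 genes. Their part in the Bcl6 levels was not tested. In sorted populations of this kind, fewer cells of a type and less RNA per cell cannot be told apart.

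Osmr was near the detection limit in most libraries and stood out in 2. The counts were 0, 0, 74 and 308 in Tg, 7, 0 and 0 in KO and 11, 24, 13 and 9 in WT. Scaled, Tg replicates 3 and 4 held 2.43 and 9.46 CPM, while every WT library lay between 0.349 and 0.738 and the highest KO library at 0.153. The Tg group thus held both the highest and 2 of the 4 empty libraries of the series, and the KO libraries lay below the WT libraries without overlap. The fit gave log2 fold changes of 2.60 in Tg against WT (SE 1.42), -2.94 in KO against WT (SE 1.94) and 5.55 in Tg against KO (SE 1.97), and none passed (edgeR adjusted p = 0.316, 0.799 and 0.126). Without Tg replicate 4 the first was 0.71, and limma-voom turned its sign, to -1.25. With 1 library left out the second reached -6.96 (without KO replicate 1, which leaves KO at 0 counts, so that this value is no bound), and the third ran between 3.67 (without Tg replicate 4) and 9.57 (without KO replicate 1). Of endothelial and stromal cells, which are known to express Osmr, 8 markers summed to 159 to 241 CPM in Tg, with 159 in replicate 4, 218 to 245 in KO and 215 to 253 in WT. Their part in the Osmr levels was not tested.

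Counted over the 8 members, edgeR called 1 higher and 0 lower in Tg against WT, where 4.92% of the 17183 genes tested were called (2.54% higher and 2.39% lower). In Tg against KO it called 1 higher and 0 lower, beside 5.69% of all genes (2.63% higher and 3.06% lower). In KO against WT it called 0, beside 0.0233% of all genes (0.00582% higher and 0.0175% lower), and DESeq2 and limma-voom called 0. At an unadjusted p under 0.05 the members counted 2 in Tg against WT (22.1% of all genes), 1 in KO against WT (7.09%) and 3 in Tg against KO (21.7%). With 8 members, 1 call is the smallest count above 0, and nothing is read from it about the set. The median log2 fold change of the members was 0.04 in Tg against WT, -0.03 in KO against WT and less than 0.01 in Tg against KO, near the medians of all genes (0.01, -0.01 and 0.01). The groups did not overlap for 1 member in each comparison, Socs3 in both Tg comparisons and Osmr in KO against WT, beside 9.85%, 20.8% and 7.50% of all genes in Tg against WT, Tg against KO and KO against WT. These comparisons share libraries, so their counts are not independent.

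**Figure D2:**
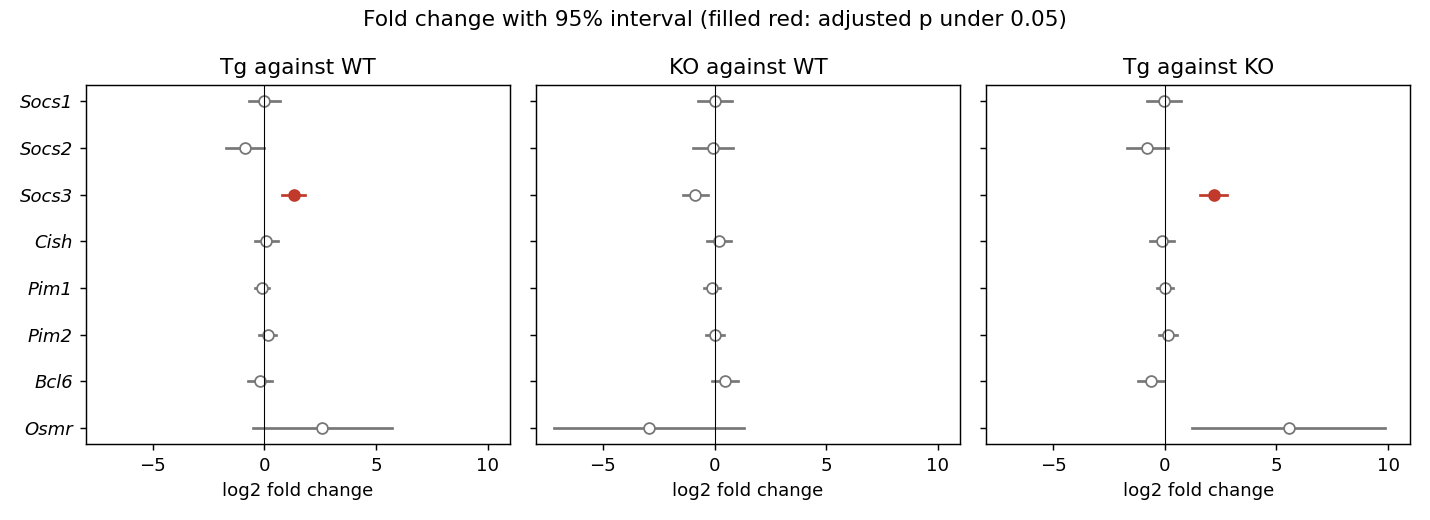
Log2 fold changes (horizontal axes) of the 8 members with 95% intervals from edgeR's quasi-likelihood fit, for Tg against WT, KO against WT and Tg against KO; filled red points passed at an adjusted p under 0.05. Socs3 passed in both Tg comparisons, at 1.32 and 2.19; the intervals of Osmr are the widest.

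Set per kilobase of exon, the means of the members spanned over 2 orders of magnitude in Tg and more than that in WT and KO. Pim1 led in every group, at 94.8 CPM per kb in Tg, 92.9 in KO and 102 in WT. Behind it the order of Socs3 and Pim2 depended on genotype. In Tg, Socs3 lay at 28.2 CPM per kb (22.9 to 32.8 over libraries), above Pim2 at 12.3 (10.1 to 15.9). In KO, Socs3 at 6.19 (4.87 to 8.57) lay below Pim2 at 11.2 (9.45 to 13.9). In WT the pair overlapped, Socs3 at 11.3 (7.70 to 14.8) and Pim2 at 11.1 (9.17 to 12.9). Next came Cish and Bcl6, whose ranges overlapped in every group (2.98 and 2.39 in Tg, 3.24 and 3.71 in KO, 2.81 and 2.70 in WT). Socs1 and Socs2 followed, at 1.22 and 0.668 in Tg, 1.23 and 1.15 in KO and 1.21 and 1.21 in WT, also with overlapping ranges. Osmr had the lowest means, with 0.245 CPM per kb in Tg, 0.00421 in KO and 0.0399 in WT, though Tg replicate 4, at 0.781, lay within the Tg range of Socs2 (0.354 to 1.10).

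Among the genes whose pattern over the 11 libraries was most like that of Socs3 were Itga6 and Celsr1, each with a Pearson r of log2 CPM of 0.95. Itga6 encodes the integrin alpha 6 subunit and Celsr1 a cadherin of planar cell polarity. Itga6 had 268 ± 16.7 CPM in Tg, 179 ± 19.8 in KO and 214 ± 16.2 in WT, and Celsr1 95.4 ± 6.50 in Tg, 37.1 ± 2.00 in KO and 61.0 ± 6.51 in WT. Itga6 did not pass in Tg against WT (edgeR adjusted p = 0.0508). The means of both, like those of Socs3 and of Phf6 itself, were lowest in KO and highest in Tg. For Itga6 and Celsr1 that order follows from their choice by likeness to Socs3, and a link with the Phf6 level was not tested. The points share their libraries and genotype groups, so these r values describe the pattern only. The closest genes for the other members were Pcdhga10 for Socs1 (0.89), Coro2b for Socs2 (0.93), Cyp51 for Cish (0.91), Ing3 for Pim1 (0.89), Cpne3 for Pim2 (0.96), Gba2 for Bcl6 (0.93) and Cdc37l1 for Osmr (0.90), from a search of all named genes averaging at least 5 CPM.

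**Figure D3:**
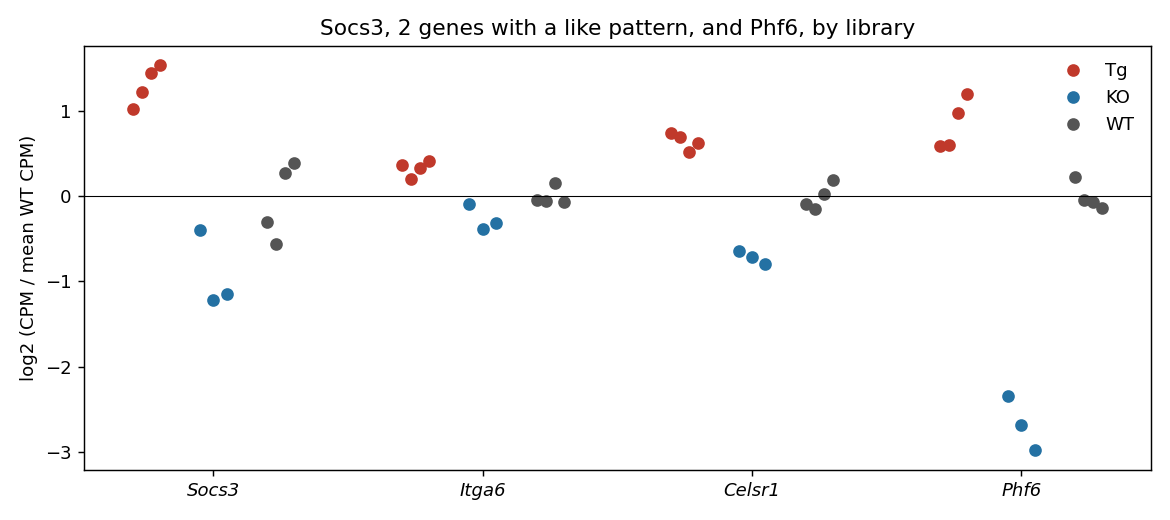
Log2 ratio of CPM to the WT mean (vertical axis) for Socs3, Itga6, Celsr1 and Phf6, with 1 point per Tg, KO and WT library. All 4 Tg libraries lie above the WT libraries for each gene; Socs3 has the widest spread within WT, 22.3 to 42.8 CPM.

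Within genotypes the members did not vary as 1 block. After the group means were taken out, Pearson r between pairs of members over the 11 libraries ran from -0.74 (Socs1 and Pim1) to 0.80 (Cish and Osmr). It was 0.64 for Socs3 and Cish and -0.36 for Socs3 and Socs2. Osmr was near the detection limit in most libraries, so its r values are loosely set. On the genome, the 11 tested protein-coding genes within 250 kb of Socs3 gave no call for a higher level in Tg against WT. The nearest, Pgs1 at 16.2 kb, had a log2 fold change of 0.24 in Tg against WT (SE 0.14), and Cyth1 was the 1 neighbour called, with a fall of 0.48 on the log2 scale (adjusted p = 0.0269 by edgeR; lost without any of 4 libraries, up to 0.0878 without Tg replicate 1). Cyth1 was named after its value was seen. Of the 3 tested neighbours of Osmr, Fyb, Rictor and Lifr, none was called.

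Some markers of other cell types also differed between genotypes, though not all in the order of Socs3. Of 10 granulocyte-monocyte progenitor genes 8 were called higher in Tg against WT and 3 in Tg against KO, and none was at 0 throughout. The summed level of the 10 was 4984 to 24363 CPM in Tg, 3930 to 5072 in KO and 1465 to 3651 in WT. Every KO sum thus lay above every WT sum. The mean of Socs3 was 17.9 CPM in KO and 32.7 CPM in WT, with overlapping groups and a difference that did not pass. In Tg replicate 3 the progenitor sum, 4984 CPM, lay within the KO range, and Socs3 was 89.1 CPM there and at most 24.8 in KO. In Tg replicates 1 to 4 the sums were 24363, 22000, 4984 and 9826 CPM, and the highest sum stood with the lowest Socs3. In the WT libraries both had the same order, with sums of 1465, 1979, 2773 and 3651 CPM beside 22.3, 26.5, 39.4 and 42.8 CPM of Socs3. Of the B cell markers 1 of 7 was called lower in Tg against WT, and 2 in Tg against KO. Their sums in Tg replicates 1 to 4 were 223, 194, 187 and 280 CPM, below every KO and WT sum. In WT replicates 1 to 4 the sums were 863, 4642, 292 and 1825 CPM, where Socs3 was 26.5, 22.3, 39.4 and 42.8. In KO replicates 1 to 3 the sums were 1271, 6054 and 2447 CPM, and Socs3 was 24.8, 14.1 and 14.8. The order of the sums was the reverse of that of Socs3 in KO, but not in WT. Among the macrophage markers 4 of 9 were called lower in Tg against WT (19.8 to 119 CPM in Tg, 30.5 to 130 in KO and 34.2 to 223 in WT). Of 9 T and NK cell markers 1 was called higher and 3 lower (128 to 265 CPM in Tg, 99.6 to 116 in KO and 95.5 to 122 in WT). That sum was highest in the Tg libraries, although most of its calls were lower. In the same comparison 1 neutrophil marker was called higher. Called lower were 2 erythroid markers, 1 plasma cell marker and 1 monocyte and dendritic cell marker. Of 6 megakaryocyte markers 1 was called higher in Tg against KO and 0 in Tg against WT. Their sums were at most 159 CPM in KO and at least 217 CPM in Tg. The WT sums, at 135 to 305 CPM, overlapped both. Within Tg, replicates 3 and 4 had both the higher sums and more Socs3. In WT the highest sum, that of replicate 2, stood with the lowest Socs3. The part of all these cell type markers in the Socs3 difference was not tested.

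**Figure D4:**
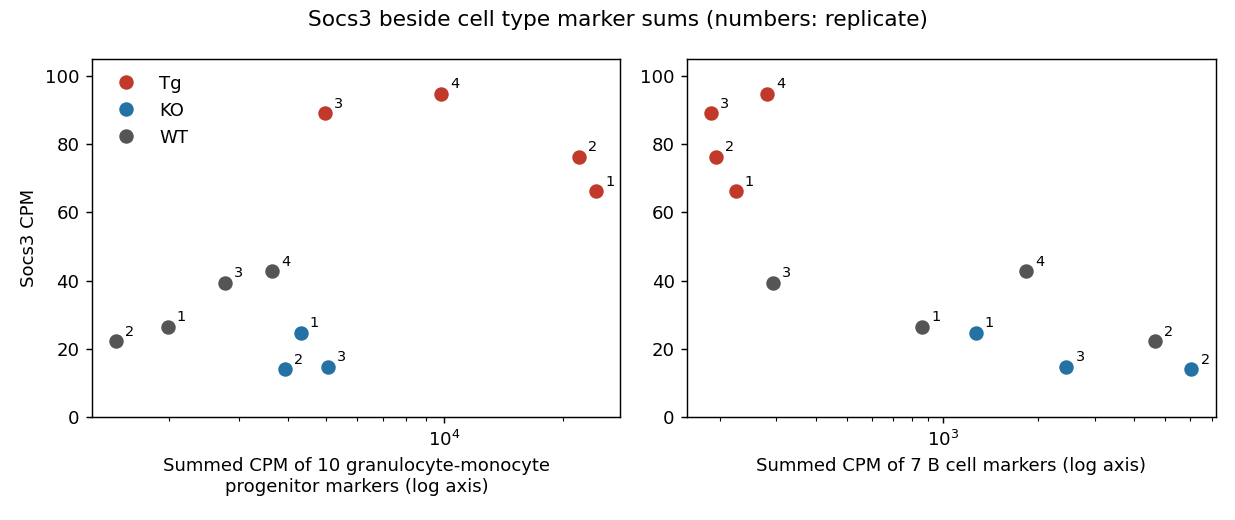
Socs3 CPM (vertical axes) against the summed CPM of granulocyte-monocyte progenitor markers (left) and of B cell markers (right, both on log axes) in each Tg, KO and WT library, numbered by replicate. Tg replicate 3 lies at 89.1 CPM of Socs3 with a progenitor sum of 4984 CPM, beside KO libraries of like sums at 14.1 to 24.8.

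The remaining genes of the pathway were read from 10 lists with 101 genes, of which 92 were tested. By edgeR, in Tg against WT 3 were called higher and 4 lower (7.61%, beside 4.92% of all genes tested). In Tg against KO 3 were called higher and 7 lower (10.9%, beside 5.69%). In KO against WT edgeR called 0, beside 0.0233% of all genes, while DESeq2 called 1 (0.570% of all genes) and limma-voom 0. In that comparison 5 had an unadjusted p under 0.05 by edgeR, beside 7.09% of all genes. With lists this short, nothing is read from the count of calls in a single list. The median log2 fold change of the 92 genes was -0.05 in Tg against WT, 0.05 in KO against WT and -0.09 in Tg against KO. With those 4 libraries of both transcript kinds left out, 0 were called in Tg against WT and 3 in Tg against KO (Il31ra, Usp18 and Il2ra).

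The JAKs and STATs themselves showed no call among 11 genes in any comparison. Stat5b, the STAT of thrombopoietin and growth hormone signalling, had 187 ± 11.4 CPM in Tg, 226 ± 13.2 in KO and 227 ± 18.4 in WT. Its Tg libraries lay below all others, and its log2 fold change in Tg against WT was -0.28 (SE 0.08, edgeR adjusted p = 0.0601). The other SOCS and PIM genes (Socs4, Socs5, Socs6, Socs7 and Pim3) gave no call either, with Socs4 at -0.33 in Tg against WT (SE 0.12). Nor did the ligase partners of the SOCS box (Elob, Eloc, Cul5 and Rnf7), the BCL6 corepressors with Bcl6b (7 genes) or the PIM substrates (6 genes).

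Receptors of the gp130 family moved in both directions. Il11ra1, the interleukin-11 receptor, rose in Tg to 40.5 ± 7.11 CPM, against 24.5 ± 2.83 in WT (log2 fold change 0.72, SE 0.14, edgeR adjusted p = 0.0168) and 26.7 ± 2.75 in KO (0.60, SE 0.15, adjusted p = 0.0377). Il31ra, the chain that OSMR pairs with to bind interleukin-31, fell in Tg to 3.03 ± 1.04 CPM, against 11.4 ± 1.37 in KO (log2 fold change -1.91, SE 0.27, adjusted p = 0.00386) and 6.21 ± 1.42 in WT (-1.03, SE 0.26, adjusted p = 0.0445). Its KO libraries also lay above all WT libraries (0.88, SE 0.27), but that difference did not pass (adjusted p = 0.556). Il6st, gp130 itself, fell in Tg to 93.8 ± 5.49 CPM, against 120 ± 15.1 in KO (-0.35, SE 0.09, adjusted p = 0.0399). With 1 library left out, the edgeR call was lost for 1 of the 11 libraries for Il11ra1 against WT (up to 0.0552, without Tg replicate 1) and for 6 against KO (0.147, KO replicate 1). Il31ra lost it for 9 against WT (0.135, Tg replicate 1) and for none against KO, and Il6st for 7 (0.163, KO replicate 1).

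Of the other cytokine receptors, 2 of 19 fell in Tg against WT. Ifnar1, a chain of the type I interferon receptor, fell to 78.9 ± 3.42 CPM in Tg, against 106 ± 4.09 in WT (log2 fold change -0.43, SE 0.06, edgeR adjusted p = 0.00461) and 98.2 ± 2.98 in KO (-0.32, SE 0.06, adjusted p = 0.0165; lost without any of 3 libraries, up to 0.0824 without KO replicate 2). Il7r, the receptor of lymphoid progenitors, fell to 4.98 ± 3.30 CPM in Tg, against 23.3 ± 17.5 in WT (-2.23, SE 0.55, adjusted p = 0.0420) and 23.2 ± 3.33 in KO (-2.22, SE 0.57, adjusted p = 0.0458). The groups of Il7r overlapped in Tg and WT, and its calls were lost for 9 and 8 of the 11 libraries left out (up to 0.131 without Tg replicate 1 against WT, and 0.132 without KO replicate 1 against KO). Against WT its log2 fold change was -1.60 without WT replicate 2, and -0.41 without the 4 libraries that held Xist and Y-linked transcripts together (adjusted p = 0.864). Ghr, the growth hormone receptor, rose in Tg to 8.33 ± 1.57 CPM, against 3.83 ± 0.989 in KO (1.12, SE 0.26, adjusted p = 0.0337; lost for 6 libraries, up to 0.134 without KO replicate 2).

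Among 14 other brakes on cytokine signalling 2 fell in Tg against KO. Usp18, which blocks the type I interferon receptor, had 4.36 ± 0.931 CPM in Tg, 18.9 ± 9.32 in KO and 7.29 ± 1.90 in WT, and a log2 fold change of -2.12 in Tg against KO (SE 0.34, edgeR adjusted p = 0.00625). In KO against WT the log2 fold change of Usp18 was 1.38 (SE 0.33), which did not pass (adjusted p = 0.344). Sh2b3, the adaptor LNK that restrains thrombopoietin signalling in stem cells, fell by 0.34 on the log2 scale in Tg against KO (SE 0.09, adjusted p = 0.0443), and that call was lost for 8 of the 11 libraries left out (up to 0.173, without KO replicate 2).

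Other STAT target genes gave 2 rises and 1 fall in Tg against WT among 13. Cebpd, a transcription factor induced by STAT3, had 33.5, 43.2, 14.1 and 26.8 CPM in Tg, 10.2, 8.86 and 11.4 in KO and 3.53, 5.81, 7.55 and 9.30 in WT. Every Tg library lay above every other. It rose by 2.17 on the log2 scale against WT (SE 0.34, edgeR adjusted p = 0.0105) and by 1.53 against KO (SE 0.37, adjusted p = 0.0367; lost for 6 libraries, up to 0.140 without KO replicate 2). Cebpb, a related factor of myeloid cells, rose by 1.07 against WT (SE 0.27, adjusted p = 0.0431; lost for 9 libraries, up to 0.120 without Tg replicate 2). Il2ra, the interleukin-2 receptor alpha chain, was called lower at levels at or near 0 in Tg, with 0.00625 CPM in Tg, 0.559 in KO and 0.360 in WT on average, and 1 WT library at 0; its calls were lost for 10 libraries against WT and 7 against KO (up to 0.127 without Tg replicate 1 and 0.0943 without KO replicate 2). The ligands of the pathway were scarce: 8 of 15 were too low to be tested, and none of the 7 tested was called. Oncostatin M itself (Osm) had 24.7, 42.4, 22.3 and 15.6 CPM in Tg, 22.0, 16.4 and 21.2 in KO and 13.7, 13.6, 33.8 and 24.6 in WT, with overlapping groups.

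**Figure D5:**
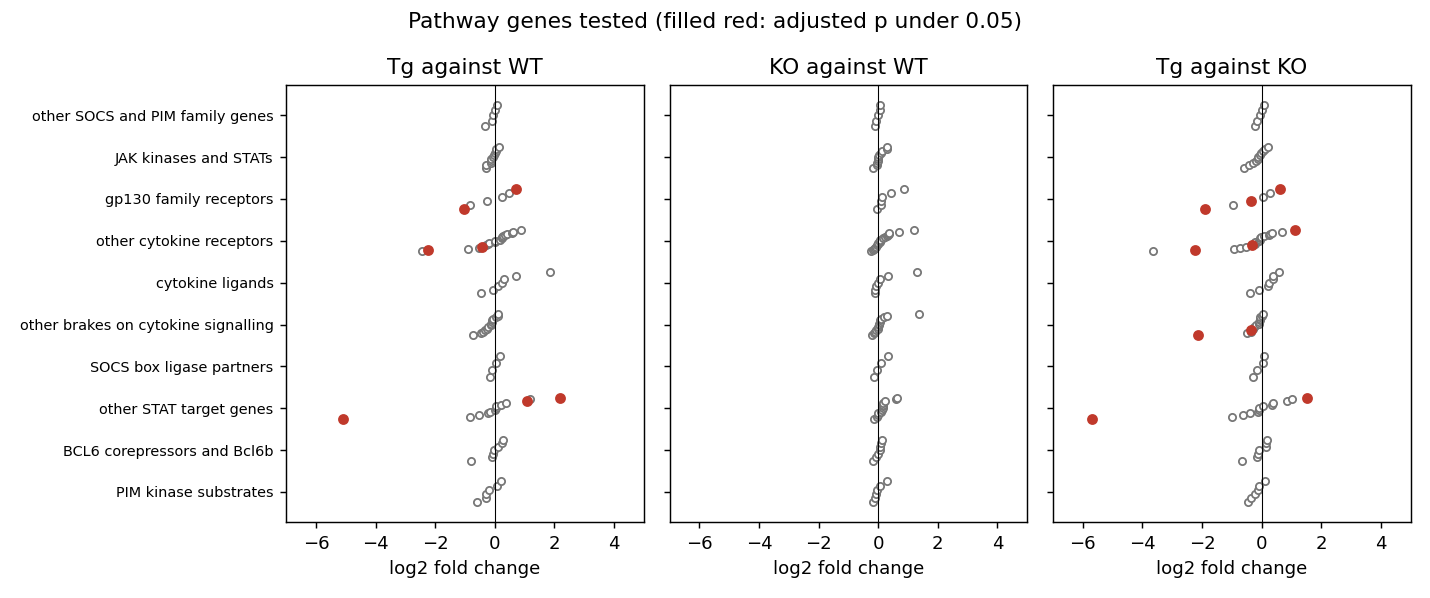
Log2 fold changes (horizontal axes) of the 92 pathway genes tested, by list, for Tg against WT, KO against WT and Tg against KO; each point is a gene, filled red where the adjusted p was under 0.05. The KO against WT panel has no call, while the Tg panels have 7 and 10, most of them in receptor and STAT target lists.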

How the data were processed

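LSK cells gave 11 RNA-seq libraries, from single mice per the labels' protocols, and the authors deposited one table of raw counts for all of them, with genes by symbol. Per the submitters' processing notes, the tools were HTSeq, STAR, Trimmomatic and FastQC, with build mm10. The sources used here give no versions, annotation, strand setting or filters. Without a stated strand setting, reads of antisense genes cannot be separated; genes overlapping Cish, Pim1 and Bcl6 held at most 233 counts.

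A single edgeR 4.0.16 fit (R 4.3.3) took in the 11 libraries, with TMM factors, filterByExpr by group, the quasi-likelihood test and no covariate. A gene was called where its p, adjusted by Benjamini-Hochberg over 17183 genes, was under 0.05. Each SE is the log2 fold change over the root of F, intervals from the total degrees of freedom. CPM are TMM normalised unless stated. The fit was tested on simulated data. Gene positions and exon lengths came from GENCODE M21 (GRCm38), promoters from RefSeq. Intervals and floors cover the reads as counted, which carry no molecular identifiers. The p-values of the edgeR fit set group differences against the spread between libraries, estimated over all groups together.

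The members and lists were chosen with earlier results of these data known. Genes named are the members, the library checks, called list genes or else examples from the 2 of lowest p, and genes from the 3 most correlated with each member (1 of these is not reported here); any other gene is marked as such. Alternatives were DESeq2 1.42.0, limma-voom (limma 3.58.1), RLE and upper-quartile factors, no filter or a stricter one (2 CPM in 3 libraries), only the groups compared, a replicate block, a covariate for Y-linked reads, leaving out libraries with Xist and Y-linked reads each at 10 CPM or more, and each library left out. No pairing of libraries by replicate number was seen, though so few libraries cannot exclude it. Figures used matplotlib 3.10.9.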

Additional observations from a re-analysis of the deposited data

How the results depend on the processing

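Across 3 comparisons, the log2 fold changes and calls of the 8 members gave 500 values under the alternatives; 451 kept their direction and side of the threshold, 48 changed sign and 1 lost its call. The lost call was Socs3 in Tg against WT without the libraries that held Xist and Y-linked reads (1.06, edgeR adjusted p = 0.224), which left 1 WT library and 0 members called. No pairing of libraries by replicate number was seen (r of same-numbered deviations -0.30 to 0.20 over 10 pairs, 2 above 0.1). With so few libraries per group these values cannot exclude it. With a replicate block the members called stayed at 1, 0 and 1 in Tg against WT, KO against WT and Tg against KO, with Socs3 at 1.35 (adjusted p = 0.0309), -0.73 and 2.09 (0.0059).

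No value that changed sign had passed the test. In Tg against WT, Socs1 was -0.024 with limma-voom, -0.017 with upper-quartile factors, -0.0042 with only the 2 groups, -0.039 with the replicate block and -0.16 with the Y-linked covariate, which put Cish at -0.11. Osmr was -1.25 with limma-voom. Without the libraries with both transcripts Socs2 was 0.14, Pim2 -0.064 and Bcl6 0.036. In KO against WT, upper-quartile factors put Socs1 at -0.017 and Pim2 at -0.016, the block put Socs1 at -0.015 and Socs2 at 0.056, and the covariate put Socs2 at 0.20. Without the same libraries Socs2 was 1.03, Cish -0.18 and Pim2 -0.37. In Tg against KO, Socs1 was 0.00011 with upper-quartile factors, Pim1 -0.0067 with the block, and Socs1 0.054 and Cish 0.21 without those libraries. The causes were not tested.

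With 1 library left out at a time, signs also changed within -0.30 to 0.30 for Socs1, -0.13 to 0.19 for Cish and -0.35 to 0.015 for Bcl6 in Tg against WT. In KO against WT the ranges were -0.12 to 0.32 for Socs1, -0.31 to 0.13 for Socs2, -0.13 to 0.37 for Cish and -0.17 to 0.12 for Pim2. In Tg against KO they were -0.32 to 0.14 for Socs1, -0.33 to 0.22 for Cish, -0.10 to 0.13 for Pim1 and -0.014 to 0.32 for Pim2.

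The counts of pathway genes called moved more. The 7 in Tg against WT became 17 with DESeq2, 3 with limma-voom, 3 with only the 2 groups, 2 with the block, 0 without the libraries with both transcripts and as few as 2 with 1 library left out. The 10 in Tg against KO became 19 with DESeq2, 2 with the block, 5 with the covariate, 3 without those libraries and as few as 2 with 1 left out, and the 0 in KO against WT became 1 with DESeq2. Over all genes, DESeq2 called 1912, 98 and 1922 in Tg against WT, KO against WT and Tg against KO, beside 846, 4 and 978 by edgeR. At the depth here Osmr had 0 counts in 4 libraries, and 9 pathway genes were too low to be tested.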
